A study of Homo sapiens with 12 samples.

Results

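Expression of 9 interferon-stimulated genes, ISG15, IFIT1, IFIT2, IFIT3, IFITM1, IFITM2, IFITM3, OAS1 and MX1, was examined in K562 cells. The genes were taken by symbol from a count table of 28278 genes. All 9 were in the table, 6 of them passed the filter on low counts and were tested, and 3 (IFIT2, OAS1 and MX1) did not pass it. K562 cells derive from a human erythroleukaemia, and sodium butyrate, an inhibitor of histone deacetylases, drives them along the red cell lineage. Cells with HRG1 intact (WT) were set beside cells with HRG1 knocked out (HRG1-KO, here KO). HRG1 is the heme transporter encoded by SLC48A1. Each genotype was left untreated (control) or given 0.75 mM sodium butyrate 24 h after plating and again 48 h later, with cells taken 6 h after the second dose. The series text places the samples at day 8 of differentiation. This gave 4 groups of 3 libraries: WT untreated, WT butyrate, KO untreated and KO butyrate. How the knockout was made, and from how many clones, is not stated in the labels. The labels also do not say whether replicates were separate cultures, so the p-values measure the spread between these libraries.

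Interferons are secreted proteins that cells release when they sense viral nucleic acids. Type I interferons bind a receptor made of IFNAR1 and IFNAR2, whose Janus kinases activate transcription factors of the STAT family, among them STAT2. With IRF9 these form a complex that binds interferon-stimulated response elements in the promoters of target genes. The target genes encode antiviral proteins. IFITM proteins sit in membranes and hinder the fusion of virus and cell. IFIT proteins bind foreign RNA, ISG15 is a small modifier that is attached to other proteins, OAS1 makes a messenger that activates an RNA-degrading enzyme, and MX1 is a GTPase that traps viral components.

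In the main edgeR fit, which did not pair the libraries, KO differed from WT cells in 1 of the 9 genes, IFITM3. IFITM3 was 8.55-fold higher in untreated and 10.5-fold higher in treated KO cells than in the matching WT cells. IFITM1 fell with butyrate in WT cells, to 0.401 of its untreated level, in a call near the threshold. With the replicate number as a block, which pairs the libraries, the fall of IFITM1 also passed in KO cells (-1.20 on the log2 scale, edgeR adjusted p = 0.0149), and IFITM2 passed for KO against WT in treated cells (0.98, 0.0333). In the main edgeR fit, on all 12 libraries without the block, IFITM2 passed in none of the comparisons. ISG15, IFIT1 and IFIT3 passed in none in that fit or with the block. Some fits with libraries left out passed IFITM2 (treated) or IFIT1 (untreated) for KO against WT, as given below. OAS1 had 0 counts in all 12 libraries.

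Matches to the core of the interferon-stimulated response element in the promoters are shown for 4 genes. IFITM3 and IFITM1 are the 2 that passed in the main fit, and ISG15 and IFIT1 are 2 that did not. RefSeq promoter windows (GRCh38.p14, from 250 bases before to 50 bases after a start site) were found for 7 of the 9 genes, in 10 windows. IFIT2 and IFITM2 were not matched. The response element core was searched as TTTCNNTTTC on both strands, which reads GAAANNGAAA on the other strand. It is in capitals in the sequences below, which read 5′ to 3′ along the gene's own strand.
IFITM3 chr11:320861-320937 (-): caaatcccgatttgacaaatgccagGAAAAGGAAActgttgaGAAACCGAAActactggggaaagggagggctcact
IFITM1 chr11:313975-314068 (+): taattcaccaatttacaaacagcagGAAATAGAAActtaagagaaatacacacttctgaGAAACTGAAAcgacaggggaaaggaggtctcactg
ISG15 chr1:1013359-1013424 (+): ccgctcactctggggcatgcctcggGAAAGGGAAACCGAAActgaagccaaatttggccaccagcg
IFIT1 chr10:89392482-89392554 (+): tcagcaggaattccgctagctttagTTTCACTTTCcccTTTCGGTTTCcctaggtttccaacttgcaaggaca
The core was present in 6 of the 7 genes with a window and in 8 of the 10 windows. OAS1 was the gene without it in its window. Among all 35116 promoter windows, 3.57% held this core. The gamma-activated site core, searched as TTCNNNGAA, which reads the same on both strands, was found in 3 genes (IFITM1, OAS1 and MX1) and in 7.66% of all windows. IFITM3, IFITM1, ISG15 and IFIT1 each carried 2 matches to the response element core, those of ISG15 overlapping each other. The gene that differed between genotypes, the one that fell with butyrate and the ones that did neither thus all held the core in these windows.

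Library totals ranged from 19963594 to 30348538 counts. Levels are in CPM, counts scaled to the library size adjusted by TMM factors, and 3 counts, used as the limit of detection, correspond to 0.0953 to 0.162 CPM depending on the library. SLC48A1, the targeted gene, stood at 73.7 ± 8.42 CPM (SD, n = 3) in WT untreated and 5.94 ± 2.74 CPM in KO untreated libraries, and at 67.8 ± 13.9 and 8.03 ± 2.04 CPM after butyrate. Summed over 8 erythroid markers of the line, the level was 5711 to 11848 CPM in WT untreated, 15876 to 33226 in WT butyrate, 3309 to 5975 in KO untreated and 4135 to 5698 in KO butyrate libraries. Markers of other cells summed to far less: 36.7 to 224 CPM over 4 plasmacytoid dendritic cell genes, 3.21 to 29.6 over 4 monocyte genes, 4.07 to 24.4 over 6 lymphocyte genes and 42.1 to 177 over 7 stromal and epithelial genes, with CLEC4C, MS4A1 and CDH5 at 0 in all 12 libraries. The share of counts on the ribosomal RNA gene RNA28SN5 ran from 0.673% to 5.63% and was highest in replicate 1 of every group. In bulk RNA, fewer cells that express a gene and less RNA per cell cannot be told apart.

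IFITM3 encodes an interferon-induced membrane protein of endosomes and lysosomes. Its gene lies at chr11:319676-320860 (GRCh38.p14). In WT untreated libraries it was at 10.9, 5.85 and 6.49 CPM, and in WT butyrate libraries at 6.01, 5.25 and 6.07 CPM. In KO untreated libraries it was at 61.1, 56.7 and 80.3 CPM, and in KO butyrate libraries at 64.0, 47.5 and 71.1 CPM. Every KO library lay above every WT library, with a wide gap between the 10.9 CPM of the highest WT library and the 47.5 CPM of the lowest KO library. The group means were 7.74 ± 2.74, 5.78 ± 0.459, 66 ± 12.5 and 60.9 ± 12.1 CPM (SD, n = 3), in the order WT untreated, WT butyrate, KO untreated and KO butyrate. In untreated cells the log2 fold change of KO against WT was 3.10 (SE 0.279), an 8.55-fold difference, with an adjusted p of 1.04e-05 in edgeR's quasi-likelihood test with Benjamini-Hochberg adjustment over the 15805 tested genes. In treated cells it was 3.40 (SE 0.283), a 10.5-fold difference, with an adjusted p of 8.12e-06 in the same edgeR test. The call held in all 6 fits with 1 library dropped, in both comparisons. A two-sided exact permutation test of 3 libraries against 3 cannot go below p = 0.1, which is what it gave for both. Without the replicate 1 libraries of all groups the log2 fold changes were 3.46 (edgeR adjusted p = 1.59e-05) and 3.36 (2.85e-05). The sum of the 4 plasmacytoid dendritic cell markers was 42.3 to 52 CPM in WT untreated and 108 to 146 CPM in KO untreated libraries. The defining marker of that set, CLEC4C, was at 0. The monocyte sum was lower in KO, at 12.2 to 16.7 and 3.21 to 9.86 CPM in the same groups. So was the lymphocyte sum, at 14.8 to 22.5 and 4.07 to 5.66 CPM. The stromal and epithelial sums overlapped, at 42.1 to 56.9 and 53.5 to 79.2 CPM. The part of other cells in the result was not tested.

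Butyrate did not move IFITM3 past the threshold in either genotype. Its log2 fold change was -0.42 (SE 0.265) in WT, with a 95% interval by the normal approximation from -0.94 to 0.10, and -0.12 (SE 0.255) in KO, with an interval from -0.62 to 0.38. The edgeR adjusted p-values were 0.448 and 0.848. The genotype difference in treated cells and that in untreated cells differed by 0.30 (SE 0.367, edgeR adjusted p = 1 for the interaction).

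**Figure D1:**
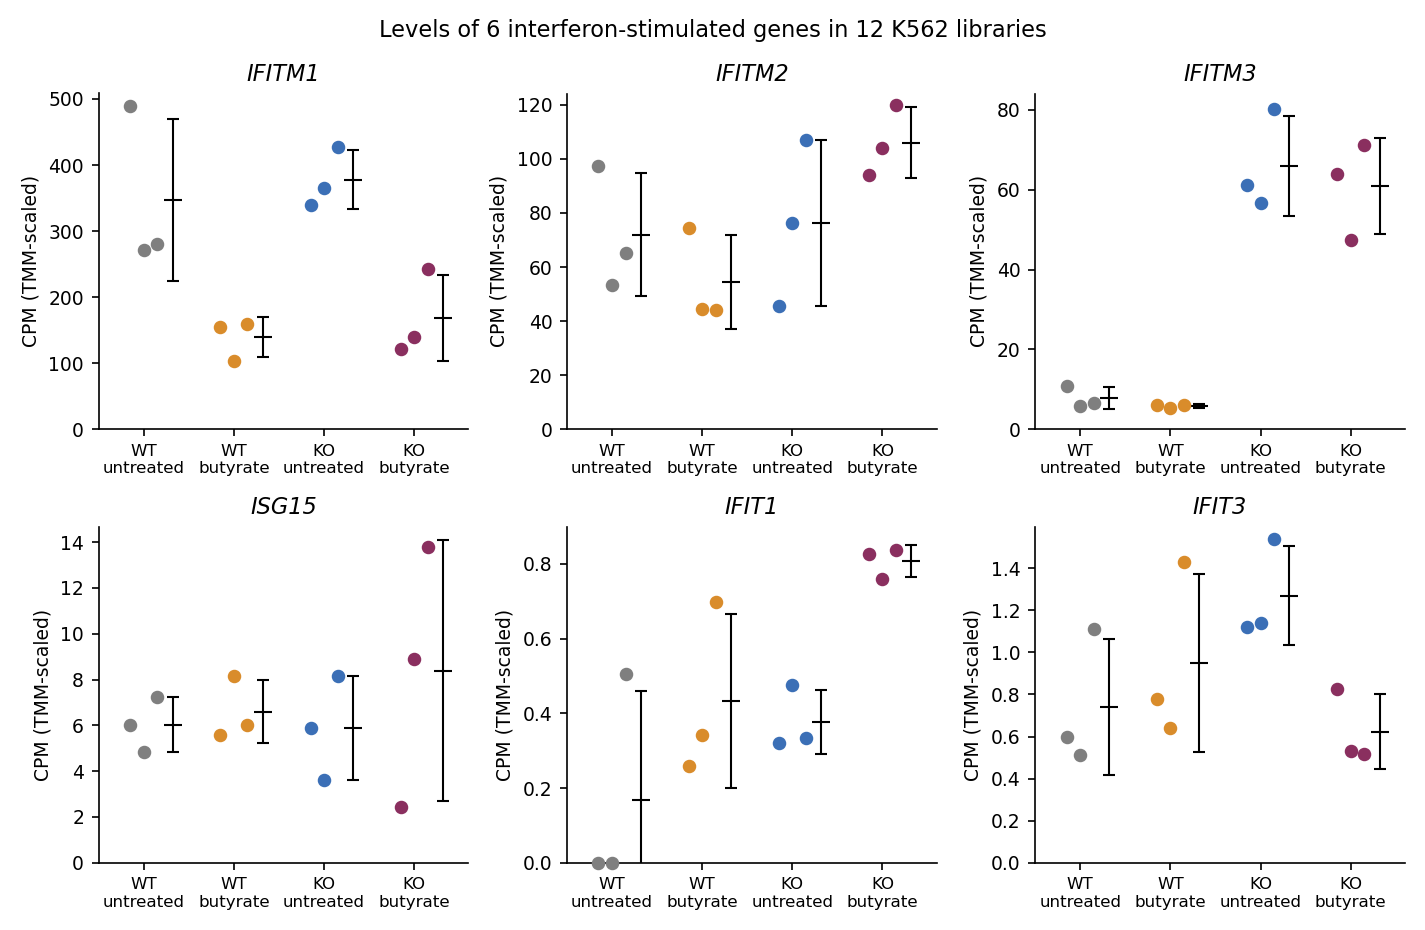
Level in CPM (TMM-scaled, linear axis from 0) of the 6 tested genes in each of the 12 libraries; points are libraries in the order of replicates 1, 2 and 3, and black bars are the group mean ± SD (n = 3), the SD bar of IFIT1 in WT untreated being cut at 0. The 6 KO libraries of IFITM3 lie between 47.5 and 80.3 CPM and the 6 WT libraries between 5.25 and 10.9 CPM, and the butyrate libraries of IFITM1 lie below the untreated ones of the same genotype.

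IFITM1, at chr11:314040-315272, encodes the family member of the cell surface and was the most highly expressed of the 9 genes. It stood at 489, 272 and 281 CPM in WT untreated and at 155, 104 and 159 CPM in WT butyrate libraries. In KO cells it was at 340, 366 and 427 CPM untreated and at 122, 140 and 243 CPM with butyrate. In both genotypes each treated library lay below each untreated one. The log2 fold change with butyrate was -1.32 in WT (SE 0.306), a fall to 0.401 of the untreated level, with an edgeR adjusted p of 0.0449. In KO it was -1.17 (SE 0.304), a ratio of 0.445, and the edgeR adjusted p of 0.0565 missed the threshold. With the replicate number as a block, which pairs the libraries, the fall passed in KO as well (-1.20, edgeR adjusted p = 0.0149) and remained past the threshold in WT (-1.33, 0.0116). The 3 same-numbered pairs gave log2 differences of -1.66, -1.38 and -0.82 in WT and -1.48, -1.39 and -0.81 in KO, for replicates 1, 2 and 3. All 6 pairs were thus lower with butyrate. The interaction was 0.15 (SE 0.425, edgeR adjusted p = 1), with a 95% interval from -0.68 to 0.98.

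The WT call for IFITM1 was close to the threshold. It was lost without any 1 of 5 of the 6 libraries: without WT untreated replicates 1, 2 or 3 the edgeR adjusted p was 0.174, 0.0877 or 0.0673, and without WT butyrate replicates 2 or 3 it was 0.182 or 0.0912. In KO the fall passed without KO butyrate replicate 3 (-1.52, edgeR adjusted p = 0.0294). Without the replicate 1 libraries of all groups, IFITM1 passed in both genotypes (-1.08, edgeR adjusted p = 0.0388 in WT; -1.07, 0.0365 in KO). The erythroid marker sums given above were higher in treated than in untreated WT libraries and overlapped between treated and untreated KO libraries, and their part in the fall of IFITM1 was not tested. Between genotypes IFITM1 did not pass the threshold, with log2 fold changes of 0.12 (95% interval from -0.47 to 0.71) untreated and 0.27 (from -0.32 to 0.86) treated.

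IFITM2, at chr11:307816-309395, is the third member of this family and, like IFITM3, is found on endosomal membranes. It was at 97.5, 53.5 and 65.1 CPM in WT untreated and at 74.3, 44.3 and 44.1 CPM in WT butyrate libraries. In KO cells it was at 45.6, 76.3 and 107 CPM untreated and at 94.0, 104 and 120 CPM with butyrate. The untreated groups overlapped, and the treated KO libraries all lay above the treated WT libraries. The log2 fold change of KO against WT was 0.08 (SE 0.321, edgeR adjusted p = 0.889) untreated and 0.97 (SE 0.324, 0.0552) treated. The treated difference passed the threshold with the replicate number as a block (0.98, edgeR adjusted p = 0.0333), without WT butyrate replicate 1 (1.25, 0.0224) and without the replicate 1 libraries of all groups (1.32, 0.00202). With butyrate IFITM2 did not pass in WT (-0.41, edgeR adjusted p = 0.56) or in KO (0.47, 0.453).

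**Figure D2:**
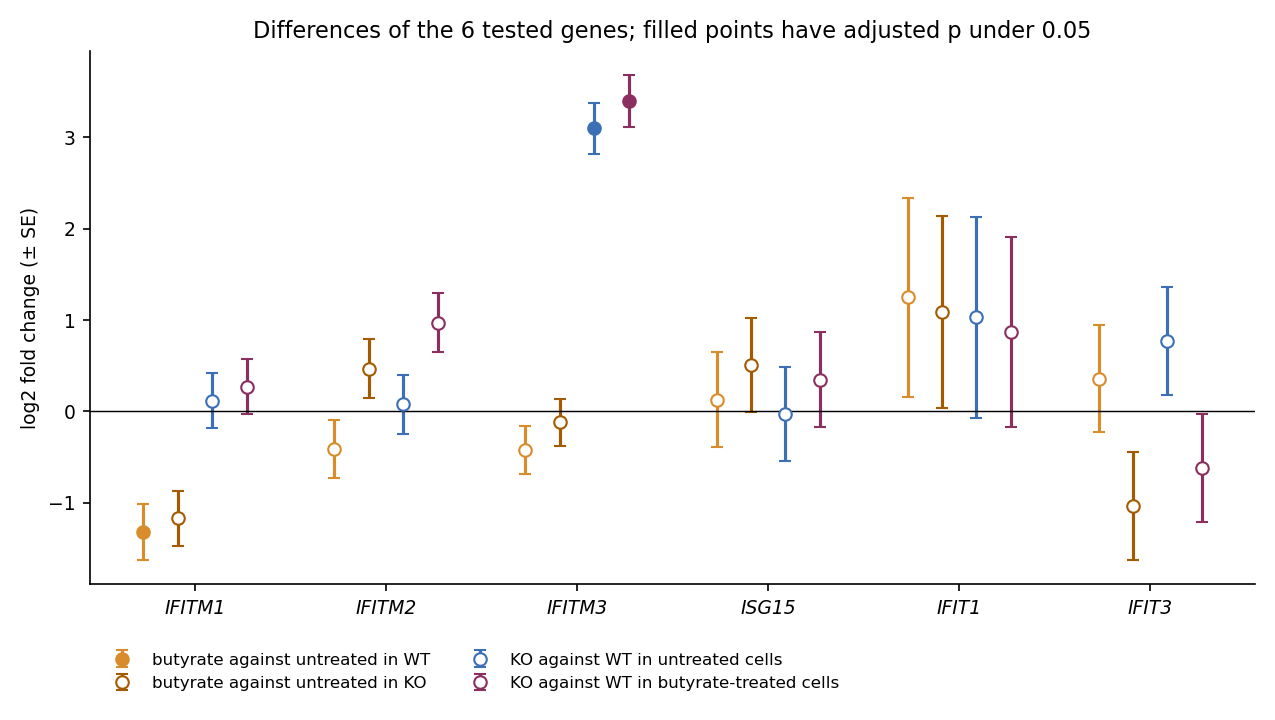
Log2 fold change (± SE) of the 6 tested genes in 4 comparisons; filled points have an edgeR adjusted p under 0.05. IFITM3 lies at 3.10 and 3.40 for KO against WT and IFITM1 at -1.32 for butyrate in WT; all other points are open.

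The 3 IFITM genes stand side by side and resemble each other. Of the distinct stretches of 50 bases in their GENCODE v29 transcripts, 32% of those of IFITM1, 34.3% of IFITM2 and 35.2% of IFITM3 also occurred in a transcript of another gene, mostly in the same family and, for IFITM3, in an overlapping long noncoding RNA. How such reads were counted, and whether strand was used, is not stated, so the split between the 3 genes is uncertain. ISG15 shared 0% of its stretches, and IFIT1, IFIT2 and IFIT3 shared 1.02%, 7.91% and 3.64%. Summed into 1 feature, the 3 IFITM genes did not pass the threshold in any comparison.

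IFITM3 took a larger share of the IFITM counts in every KO library than in any WT library. IFITM3 made up 1.82%, 1.77% and 1.84% of the summed IFITM1, IFITM2 and IFITM3 counts in the WT untreated libraries and 2.56%, 3.41% and 2.90% in the WT butyrate libraries. It made up 13.7%, 11.4% and 13.1% in KO untreated and 22.9%, 16.3% and 16.4% in KO butyrate libraries. Wilson 95% intervals, which cover counting error only, reached at most 4.05% in a WT library (WT butyrate replicate 2) and began no lower than 10.8% in a KO library (KO untreated replicate 2). The share of IFITM1 ran from 79.7% to 82.1% in WT untreated, 65.8% to 76.0% in WT butyrate, 69.5% to 76.1% in KO untreated and 43.5% to 55.9% in KO butyrate libraries. These shares are ratios within a library and do not depend on the scaling between libraries.

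**Figure D3:**
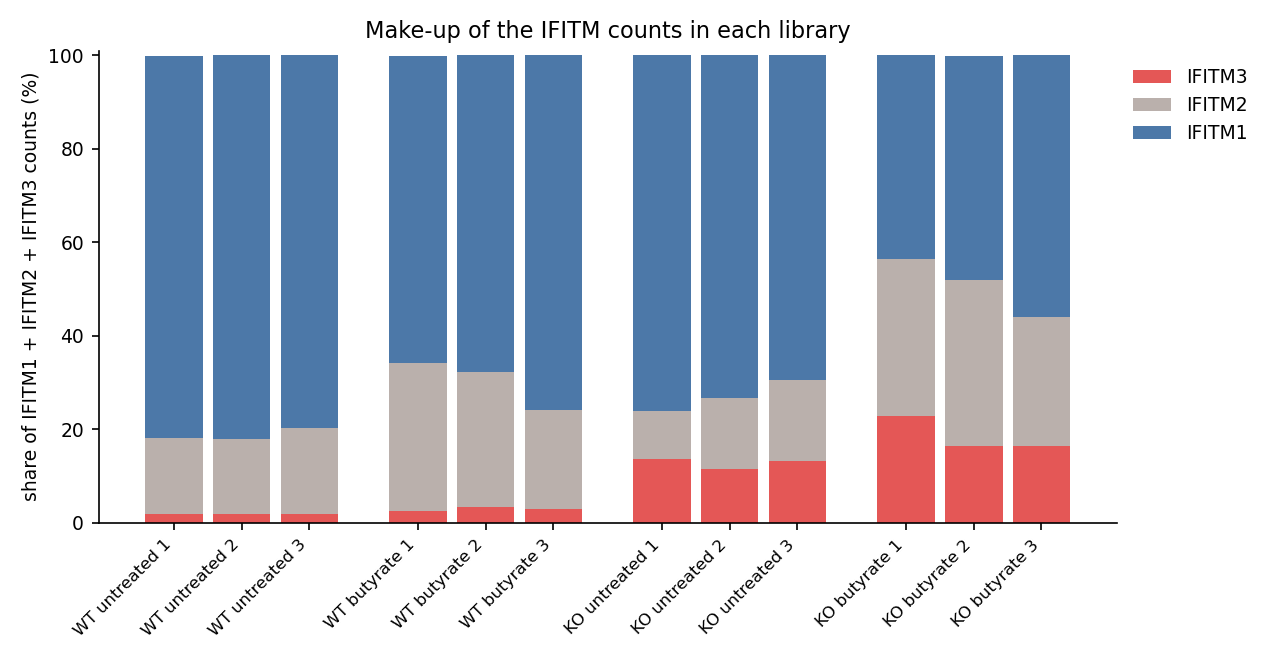
Share (%) of the summed IFITM1, IFITM2 and IFITM3 counts that fell on each gene, 1 bar per library. IFITM3 takes 1.77% to 3.41% in the WT libraries and 11.4% to 22.9% in the KO libraries.

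None of the genes around IFITM3 passed the threshold in the same direction as IFITM3 itself. Of the 36 other tested genes within 500 kb of it, IFITM1 and IFITM2 left out, 0 were higher in untreated KO cells and 11 were lower, with a median log2 fold change of -0.982 and a range from -4.62 to 0.249. Over all tested genes, 11.7% were higher and 10.9% lower in that comparison. In treated cells 0 of the 36 were higher and 12 were lower, with a median of -0.964 and a range from -2.89 to 0.416, beside 10.1% higher and 8.89% lower over all tested genes. On the whole of chromosome 11, with 858 tested genes, 75 were higher and 118 lower untreated (median -0.128), and 72 were higher and 103 lower treated (median -0.126). The window was chosen after the values of IFITM3 were known. The count of lower genes was 14 and 15 without the replicate 1 libraries, 23 and 19 with the replicate block, 20 untreated with DESeq2, 6 untreated without KO untreated replicate 2 and 6 treated when only the groups compared were fitted, and the count of higher genes was 0 each time. The calls over all tested genes, in both directions together, moved as well: from 3574 and 3009 to 4314 and 4059 without the replicate 1 libraries, to 5217 and 4612 with the block, to 4504 untreated with DESeq2, to 2485 untreated without KO untreated replicate 2 and to 1802 treated when only the groups compared were fitted. B4GALNT4, a glycosyltransferase gene and the nearest other gene of the table beyond IFITM3, had a log2 fold change of -3.04 in untreated cells (edgeR adjusted p = 0.00492) and -1.56 in treated cells (0.0963). IRF7, a transcription factor that drives interferon genes and that also lies in this window, was at -1.12 (edgeR adjusted p = 0.0503) and -0.99 (0.0866), and passed with the replicate number as a block (-1.12, 0.0179 and -1.0, 0.0319), without WT untreated replicate 2 (-1.32, 0.0474, untreated) and without KO butyrate replicate 3 (-1.34, 0.0486, treated).

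**Figure D4:**
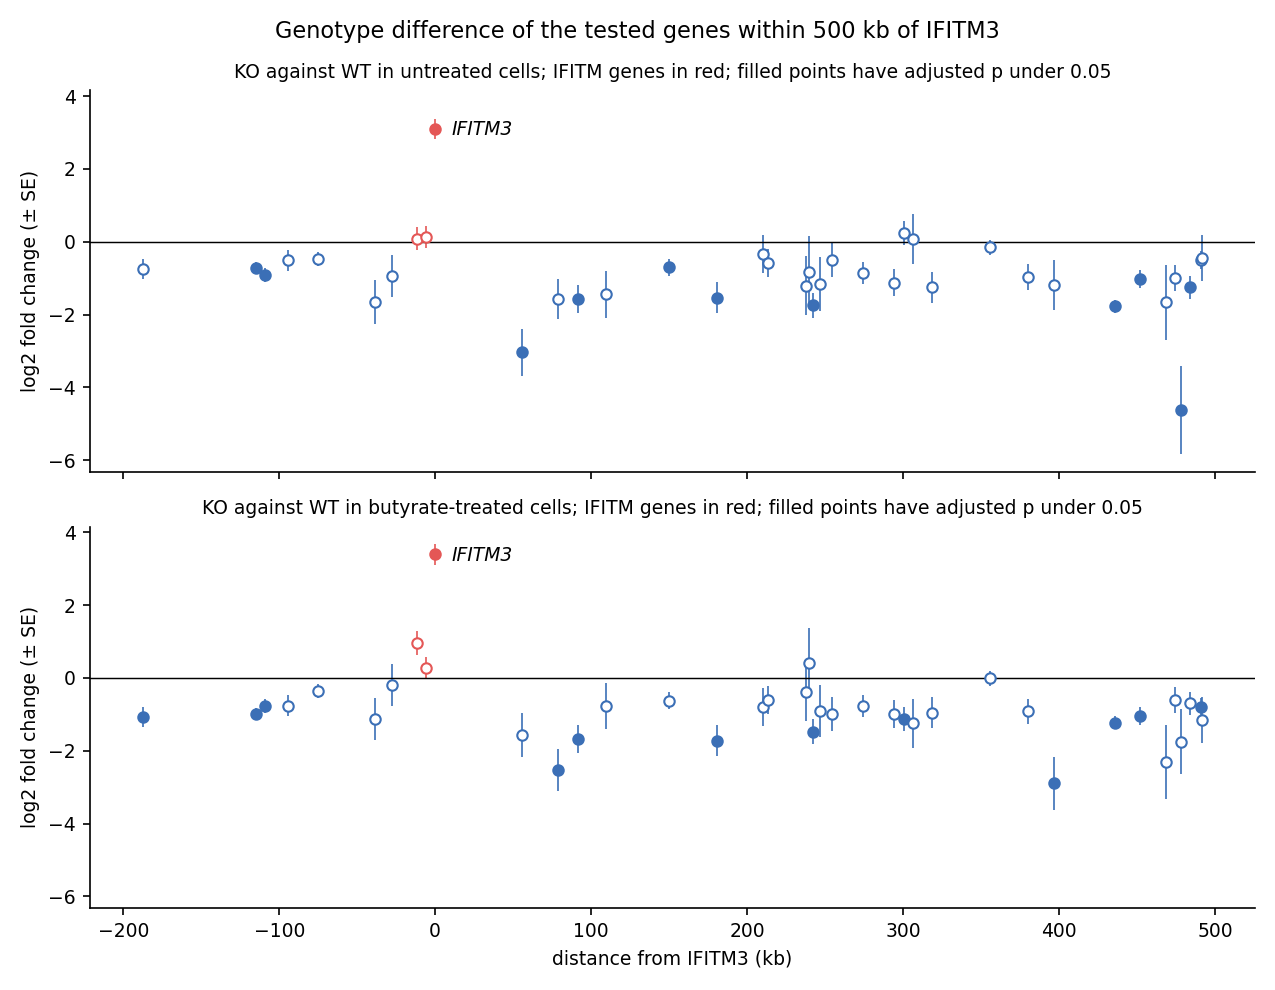
Log2 fold change (± SE) of KO against WT for the tested genes within 500 kb of IFITM3, by distance from it in kb, in untreated (top) and treated cells (bottom); IFITM genes are in red and filled points have an edgeR adjusted p under 0.05. IFITM3 lies at 3.10 and 3.40 while the 36 other genes outside the family have medians of -0.982 and -0.964.

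ISG15, at chr1:1013497-1014540, was at 6.01, 4.83 and 7.23 CPM in WT untreated and at 5.60, 8.15 and 6.01 CPM in WT butyrate libraries. In KO cells it was at 5.89, 3.61 and 8.16 CPM untreated and at 2.43, 8.92 and 13.8 CPM with butyrate. All 4 groups overlapped, and the treated KO libraries were the most spread. Its log2 fold change was 0.13 with butyrate in WT, 0.51 with butyrate in KO, -0.03 for KO against WT untreated and 0.35 treated, and the lowest edgeR adjusted p of these was 0.633. The 95% intervals spanned from -0.88 to 1.14, from -0.50 to 1.52, from -1.04 to 0.98 and from -0.66 to 1.36, so each of them includes both a fall and a rise. The nearest genes of the table on either side, HES4 and AGRN, passed the threshold in none of the comparisons.

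Of the 4 enzymes that attach ISG15 to proteins or remove it (UBA7, UBE2L6, HERC5 and USP18), 3 were tested, and 1 of them was higher and 0 lower in KO cells in either comparison, where 11.7% and 10.1% of all tested genes were higher. USP18, which removes ISG15 and also blocks signalling at the interferon receptor, was at 0.589 ± 0.25 CPM in WT untreated and 18.2 ± 2.96 CPM in KO untreated libraries (SD, n = 3). Its log2 fold change was 4.96 (SE 0.561), 31.1-fold, with an edgeR adjusted p of 5.83e-05. In treated cells it was at 0.755 ± 0.498 and 8.39 ± 1.36 CPM, a log2 fold change of 3.47 (SE 0.525, edgeR adjusted p = 0.000652). Both calls held in all 6 fits with 1 library dropped.

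The IFIT genes form a cluster on chromosome 10 and were near the limit of detection. IFIT1, at chr10:89392623-89406487, had 0, 0 and 15 counts in WT untreated, 5, 8 and 22 in WT butyrate, 6, 10 and 10 in KO untreated and 18, 23 and 26 in KO butyrate libraries. The treated KO libraries held the highest levels, 0.827, 0.760 and 0.838 CPM, above all libraries of the other groups, of which the highest was WT butyrate replicate 3 at 0.699 CPM. Its log2 fold changes were 1.25 with butyrate in WT (SE 1.09), 1.09 with butyrate in KO (SE 1.05), 1.03 for KO against WT untreated (SE 1.10) and 0.87 treated (SE 1.04), and none passed the edgeR test (adjusted p from 0.558 to 0.625). Without WT untreated replicate 3, both remaining libraries of that group held 0 counts and the edgeR adjusted p for KO against WT in untreated cells was 0.0168. The fitted fold of 6.2 on the log2 scale is then no measured size.

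IFIT3, at chr10:89327997-89340968, encodes a partner of IFIT1 in its RNA-binding complex. It had 11, 11 and 33 counts in WT untreated, 15, 15 and 45 in WT butyrate, 21, 24 and 46 in KO untreated and 18, 16 and 16 in KO butyrate libraries. Within same-numbered pairs it was 0.34, 0.29 and 0.34 higher with butyrate in WT and -0.41, -1.0 and -1.44 in KO on the log2 CPM scale. The edgeR interaction did not pass (-1.38, SE 0.834, adjusted p = 1). Neither did the effect of butyrate in WT (0.36, edgeR adjusted p = 0.809) or in KO (-1.03, 0.364), or the genotype difference untreated (0.77, 0.393) or treated (-0.62, 0.532). IFIT2, at chr10:89302046-89309271, which encodes another RNA-binding member, had 1, 0 and 1 counts in WT untreated, 2, 6 and 3 in WT butyrate, 2, 4 and 7 in KO untreated and 0, 9 and 16 in KO butyrate libraries and was not tested. LIPA, a gene on the opposite strand, overlaps IFIT1, IFIT2 and IFIT3 in GENCODE v29, and without stated strand use some of these few reads could belong to it.

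OAS1, at chr12:112906962-112933219, had 0 of 294197996 counts over the 12 libraries, which allows up to 0.0102 CPM. MX1, at chr21:41420558-41459214, had 3 counts, all in WT butyrate replicate 3. Neither gene gave a level that could be compared between groups. OAS3, the neighbour of OAS1 and a longer enzyme of the same kind, was detected, at 1.40 ± 0.509 CPM in WT untreated and 0.166 ± 0.145 CPM in KO untreated libraries (SD, n = 3). Its log2 fold change of KO against WT was -3.11 (SE 0.789, edgeR adjusted p = 0.0131) untreated, lost without KO untreated replicate 2 (0.052), and -1.56 (0.143) treated. With the replicate block the untreated value was -3.08 (edgeR adjusted p = 0.0119).

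Set side by side per kb of merged exons (GENCODE v29), the levels of the 9 genes spanned a wide range in WT untreated cells. IFITM1 stood at 321 ± 114 CPM per kb (SD, n = 3) and IFITM2 at 46.7 ± 14.8. ISG15 at 6.40 ± 1.28 and IFITM3 at 5.74 ± 2.03 followed and overlapped each other. IFIT3 at 0.28 ± 0.123, IFIT1 at 0.0364 ± 0.0631 and IFIT2 at 0.00714 ± 0.00667 came next, the latter 2 overlapping, with MX1 and OAS1 at 0. In KO untreated cells IFITM1 (350 ± 41.0) remained first, and IFITM3 (49.0 ± 9.29) stood level with IFITM2 (49.5 ± 19.9), their libraries overlapping. IFITM3 thus went from the level of ISG15 in WT cells to above every KO untreated library of ISG15, which ran from 3.84 to 8.67 CPM per kb. In KO butyrate cells the order was IFITM1 (156 ± 60.4), IFITM2 (68.6 ± 8.55), IFITM3 (45.2 ± 8.96) and ISG15 (8.91 ± 6.06).

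Counted together, 0 of the 6 tested genes were higher and 1 was lower with butyrate in WT, where 1.8% of all 15805 tested genes were higher and 0.55% lower. With butyrate in KO 0 were higher and 0 lower, beside 2.8% and 0.595% over all tested genes and 3122 genes with an unadjusted edgeR p under 0.05; DESeq2 called 1 of the 6. For KO against WT 1 was higher and 0 lower both untreated, beside 11.7% and 10.9%, and treated, beside 10.1% and 8.89%. The interaction passed for 0 of the 6, and for 0% higher and 0% lower of all tested genes by edgeR, with 658 genes at an unadjusted p under 0.05 and 86 past the threshold by DESeq2. The median log2 fold change of the 6 was -0.141, 0.177, 0.445 and 0.612 in the 4 comparisons in this order, and that of all tested genes was 0.0248, 0, 0.0172 and -0.00216. Each comparison thus held at most 1 call among the 6 genes, a count too small to read against these shares.

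The genes with the profile most like each member over the 12 libraries, by the root mean square difference of centred log2 CPM, were in no case other members. For IFITM3 they were LRRC2-AS1 (0.363) and P3H4 (0.368), for IFITM1 CCND2 (0.311) and TAF9 (0.32), for IFITM2 NAA80 (0.268) and SOX18 (0.311), for ISG15 PNKD (0.305) and DNPEP (0.329), for IFIT1 SLC16A8 (0.471) and RBM44 (0.491), and for IFIT3 SLC5A3 (0.323) and GPATCH1 (0.348). Between members the smallest such difference was 0.718, between ISG15 and IFITM2, and the one between IFITM3 and its neighbour IFITM1 was 1.62. Only 6 of the 15805 tested genes are members, so other genes would mostly come nearest whatever the profiles. These differences were not set beside those between other genes, so no conclusion on a shared profile is drawn.

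The rest of the interferon pathway was described through 7 lists with 126 genes, of which 79 were tested and 27 had 0 counts in every library. With butyrate 1 was higher and 2 were lower in WT, and 4 were higher and 0 lower in KO. Over all tested genes 1.8% were higher and 0.55% lower in WT, and 2.8% and 0.595% in KO. For KO against WT 12 of the 79 were higher and 10 lower untreated, beside 11.7% and 10.9% over all tested genes, and 13 were higher and 2 lower treated, beside 10.1% and 8.89%. With the replicate number as a block, 11, 13, 36 and 28 passed in these comparisons in place of 3, 4, 22 and 15, while the calls over all tested genes went from 372, 537, 3574 and 3009 to 1361, 1852, 5217 and 4612. The interaction passed for 0 of the 79 by edgeR. The median log2 fold changes of the 79, 0.0717, 0.235, -0.106 and 0.0751, lay on both sides of 0.

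Of the interferons themselves, 19 of 22 listed genes had 0 counts in all 12 libraries, among them IFNB1, which encodes interferon beta. IFNK, an interferon otherwise known from skin, was the 1 tested, at group means from 0.386 to 0.527 CPM, and it passed in none of the comparisons. The receptor chains IFNAR1 and IFNAR2 were detected in all libraries, IFNAR1 at group means from 45.9 to 55.2 CPM and IFNAR2 from 25.9 to 40.8 CPM, and neither passed between genotypes. Of the 8 tested receptor chains and kinases, 0 were higher and 1 lower in KO untreated, and 1 was higher and 1 lower in KO treated, beside 11.7% higher and 10.9% lower, and 10.1% and 8.89%, over all tested genes. IL10RB, a chain of the receptor for lambda interferons, was 2.64-fold lower in KO untreated (-1.40, SE 0.343, edgeR adjusted p = 0.011). IFNGR2, a chain of the gamma interferon receptor, fell with butyrate in WT (-1.07, SE 0.206, edgeR adjusted p = 0.0222), a call lost without any 1 of 4 libraries (at most 0.1, without WT butyrate replicate 2). This fall of IFNGR2 passed with the replicate block (-1.07, edgeR adjusted p = 0.00684). It was higher in KO than in WT treated cells (0.89, SE 0.206, edgeR adjusted p = 0.00955), where the call held without any 1 library. JAK2, a kinase of that receptor, was lower in KO treated cells (-1.13, SE 0.348, edgeR adjusted p = 0.0391), a call lost without WT butyrate replicate 1 (-0.64, 0.136), KO butyrate replicate 2 (-1.07, 0.121) or KO butyrate replicate 3 (-0.89, 0.121). The replicate block gave -1.12 for JAK2 (edgeR adjusted p = 0.00865).

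Among the transcription factors of the pathway, STAT2, a part of the complex that binds the response element, was lower in untreated KO cells, and its partner IRF9 passed in neither genotype comparison. STAT2 fell from 66.9 ± 10.5 to 36.5 ± 0.598 CPM untreated (SD, n = 3; -0.87, SE 0.239, edgeR adjusted p = 0.0195). That call was lost without WT untreated replicate 3 (0.0759) or any 1 of the KO untreated libraries (0.0578, 0.0532 and 0.0516). It passed with the replicate block (-0.85, edgeR adjusted p = 0.00297). Treated, STAT2 was at -0.54 (edgeR adjusted p = 0.136), past the threshold with the replicate block (-0.53, 0.0392) and without WT butyrate replicate 1 (-0.74, 0.0367). IRF9 was at -0.15 and 0.13, and IRF1, a factor induced by gamma interferon, at 0.29 and -0.20. IRF2, a repressor of the same elements, was lower in untreated KO cells (-0.79, SE 0.243, edgeR adjusted p = 0.0332), in a call that held in 1 of 6 fits with 1 library left out, its adjusted p reaching 0.112 without KO untreated replicate 1. With the replicate block IRF2 was at -0.80 (edgeR adjusted p = 0.0156).

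Among 13 tested sensors and adaptors, 2 were higher and 3 lower in untreated KO cells, and 2 were higher and 0 lower in treated KO cells, beside 11.7% and 10.9%, and 10.1% and 8.89%, over all tested genes. IFIH1, the sensor MDA5 for long double-stranded RNA, had 0, 1 and 8 counts in WT untreated and 82, 122 and 262 in KO untreated libraries. Its log2 fold change was 5.68 (SE 0.788, edgeR adjusted p = 0.000261) untreated and 5.24 (SE 0.754, 0.000453) treated. DDX58, the sensor RIG-I for RNA with a 5′ triphosphate, rose from 2.50 ± 0.182 to 8.40 ± 0.834 CPM (1.74, SE 0.32, edgeR adjusted p = 0.00184) untreated. Treated, it was at 0.96 (SE 0.312, edgeR adjusted p = 0.0494), a call that held in 1 of 6 fits with 1 library left out (at most 0.182, without WT butyrate replicate 2). The treated call passed with the replicate block (0.95, edgeR adjusted p = 0.037). STING1, the adaptor of the cytosolic DNA pathway, was 4.04-fold lower in untreated KO cells (-2.02, SE 0.418, edgeR adjusted p = 0.00407). IFI16, a DNA sensor, had 22, 11 and 34 counts in WT untreated and 0 in all 3 KO untreated libraries (edgeR adjusted p = 0.00497). TLR8, an endosomal RNA sensor, had 34, 45 and 16 counts in WT untreated and 3, 2 and 8 in KO untreated libraries (-3.02, SE 0.757, edgeR adjusted p = 0.0123), and was lost without WT untreated replicate 2 (-2.70, 0.0516) or KO untreated replicate 2 (-2.76, 0.0581). With the replicate block TLR8 was at -2.81 (edgeR adjusted p = 0.0154). Among the calls in untreated KO libraries the cytosolic RNA sensors IFIH1 and DDX58 were thus higher, and TLR8, IFI16 and STING1 lower. DHX58, another gene of this list, was not called, at 1.38 ± 1.10 CPM in WT untreated and 0.391 ± 0.414 CPM in KO untreated libraries (SD, n = 3). Of the 13, 4 had a log2 fold change above 0 and 9 below 0 in that comparison.

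Of 9 tested negative regulators, 1 was higher and 0 lower in KO cells in each genotype comparison, where 11.7% (untreated) and 10.1% (treated) of all tested genes were higher. With butyrate in KO 2 were higher, beside 2.8% over all tested genes. SOCS1, an inhibitor of Janus kinases that interferon itself induces, rose 2.46-fold untreated (1.30, SE 0.346, edgeR adjusted p = 0.0167) and 2.49-fold treated (1.31, SE 0.346, 0.0188). These calls were each lost in 3 of 6 fits with 1 library left out, the adjusted p reaching 0.0772 without WT untreated replicate 3 and 0.0731 without WT butyrate replicate 2. Both passed with the replicate block (1.31, edgeR adjusted p = 0.00372 untreated and 1.38, 0.00308 treated). With butyrate in KO, SOCS3, an inhibitor of STAT3 signalling, rose (1.21, SE 0.251, edgeR adjusted p = 0.0262), and so did PTPN6, the phosphatase SHP-1 (2.08, SE 0.446, 0.0281). The former held in 2 and the latter in 1 of 6 fits with 1 library left out, with adjusted p-values of up to 0.138 and 0.141 without KO untreated replicate 2. The replicate block gave 1.21 for SOCS3 (edgeR adjusted p = 0.00408) and 2.02 for PTPN6 (0.014).

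Of 54 other interferon-stimulated effector genes, 38 were tested and 5 had 0 counts in all libraries (IFI44, IFI44L, OAS2, XAF1 and EPSTI1, named after their values were seen). In KO untreated cells 7 were higher and 4 lower, beside 11.7% and 10.9% over all tested genes, and in KO treated cells 7 were higher and 1 lower, beside 10.1% and 8.89%. The median log2 fold changes of the 38 were 0.335 and 0.561. LGALS3BP, a secreted glycoprotein, was 10.1-fold higher untreated (3.33, SE 0.584, edgeR adjusted p = 0.00138) and 10.6-fold higher treated (3.41, SE 0.58, 0.00144). PARP14, an ADP-ribosyltransferase, rose untreated (2.30, SE 0.548, edgeR adjusted p = 0.00943), and LY6E, a membrane protein that hinders virus entry, rose treated (1.5, SE 0.22, 0.00054). SP100, a component of nuclear bodies, was lower in both (-1.70, SE 0.253, edgeR adjusted p = 0.000447 and -1.29, SE 0.251, 0.0034). Each of these calls held whichever single library was dropped. PARP14 was also called higher in treated KO cells (8.48 ± 4.31 CPM in WT, 32.5 ± 15.2 CPM in KO; SD, n = 3). LY6E was also called higher in untreated KO cells (198 ± 33.9 CPM in WT, 359 ± 78.6 CPM in KO).

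IFI6, a mitochondrial protein that restrains cell death, was the 1 effector that rose with butyrate in both genotypes. It went from 1.54 ± 0.263 to 10.3 ± 4.68 CPM in WT (2.75, SE 0.467, edgeR adjusted p = 0.013) and from 7.27 ± 3.90 to 34.7 ± 11.4 CPM in KO (2.25, SE 0.444, 0.0217; SD, n = 3). It was also higher in KO than in WT cells untreated (2.25, SE 0.461, edgeR adjusted p = 0.00381), and was called higher in KO cells treated as well. Each butyrate call was lost without any 1 of 4 libraries, the adjusted p reaching 0.0757 in WT without WT untreated replicate 2 and 0.122 in KO without KO untreated replicate 2. Both butyrate calls passed with the replicate block (2.67, edgeR adjusted p = 0.00284 in WT and 2.27, 0.00312 in KO). IFI27, a small membrane protein of the same family, fell in untreated KO cells (-2.68, SE 0.659, edgeR adjusted p = 0.0111) and rose with butyrate in KO (3.13, SE 0.666, 0.0278). The former was lost without WT untreated replicate 3 (-2.14, 0.0544), and the latter held in 1 of 6 fits (0.12 without KO butyrate replicate 2). With the replicate block they were at -2.70 (edgeR adjusted p = 0.00448) and 3.24 (0.00632). PLSCR1, a membrane protein that moves phospholipids, fell with butyrate in WT (-1.09, SE 0.255, edgeR adjusted p = 0.0463). That call held in 2 of 6 fits (0.169 without WT butyrate replicate 2) and with the replicate block (-1.05, 0.0187). PLSCR1 was higher in treated KO than in treated WT cells (1.25, SE 0.256, edgeR adjusted p = 0.00457). It was also called higher in untreated KO cells (28.2 ± 11.8 CPM in WT, 50.6 ± 3.2 CPM in KO; SD, n = 3).

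**Figure D5:**
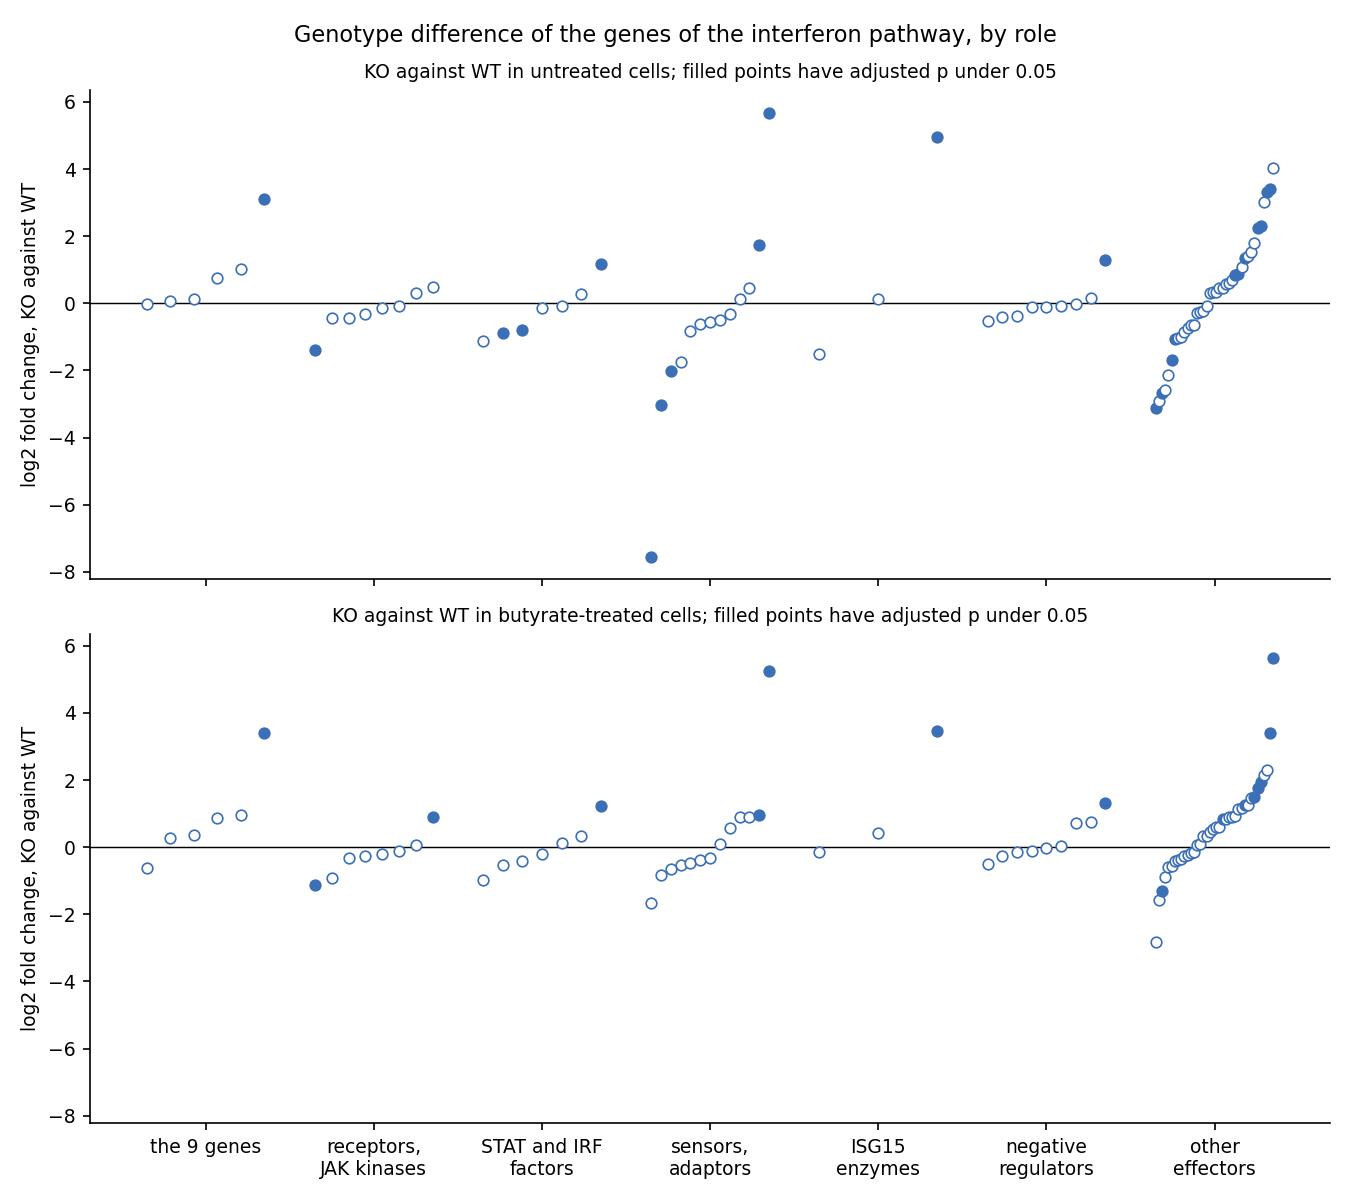
Log2 fold change of KO against WT for the 6 tested members and the tested genes of 6 pathway lists, sorted within each list, in untreated (top) and treated cells (bottom); filled points have an edgeR adjusted p under 0.05. Filled points lie on both sides of 0 in untreated cells (12 higher and 10 lower outside the members); the lowest point, IFI16, is a fitted value against libraries that all held 0 counts and is no measured size.

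Genes with the response element core in a promoter window were compared with the rest as a description. Of 459 tested genes with the core, 14.2% were higher and 8.28% lower in untreated KO cells, with a median log2 fold change of 0.134. Of 11229 genes with a window and no core, 12.3% were higher and 10.8% lower, with a median of 0.0391. In treated cells the values were 13.7%, 5.23% and 0.0968 with the core and 10.5%, 8.83% and 0.0174 without it. Most genes with the core, like ISG15 and IFIT1 among the 9, passed in neither direction.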

How the data were processed

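RNA sequencing libraries from 12 K562 samples were analysed, 3 in each of 4 groups named by the sample titles. The authors deposited whole-number counts per gene symbol. FastQC 0.12.1, STAR 2.7.11b and hg38 are named in the submitters' processing notes, and the counting tool, annotation and use of strand are not given in the sources used here. Columns were tied to samples through the library names in the labels, and 0 columns were left unused. Library totals of 19963594 to 30348538 counts set the precision, 3 counts equalling 0.0953 to 0.162 CPM. No pair of replicates held the same library, since replicates of a group differed by a chi-square per degree of freedom of at least 37.2.

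Counts were fitted in R 4.3.3 with edgeR 4.0.16: filterByExpr with a minimum count of 10 (15805 genes kept), TMM scaling, 1 mean per group over all 12 libraries (8 residual degrees of freedom, biological coefficient of variation 0.384) and the quasi-likelihood F-test. Benjamini-Hochberg adjustment ran over the whole set of tested genes in each comparison, with a threshold of 0.05. The script was tested on simulated data. Alternatives were DESeq2 1.42.0, RLE or library size scaling, other filters, the groups compared alone, a replicate block, each library left out, the libraries numbered 1 left out together, and the IFITM genes summed. The libraries numbered 1 were known from earlier results to stand apart. Libraries with the same number in the titles deviated together from their group means, with correlations over genes of 0.195 to 0.409, 0.147 to 0.468, 0.21 to 0.361 and 0.315 to 0.595 in the 4 comparisons. Pairs that did not share a number reached at most 0.186, 0.123, 0.0692 and 0.343, so that the ranges overlapped for KO against WT in treated cells. Since every same-numbered pair had a positive correlation of this size, the numbers were taken to pair the libraries in the replicate block. The main fit did not use this pairing, and its calls are given beside those with the block where they differ for the members.

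The members and lists were chosen with earlier results of these data known. Named genes were the members, up to 3 genes past the threshold per list, comparison and direction, background genes of the pathway given whatever their values, the 2 genes most like each tested member, the nearest genes in the table and SLC48A1. The study of genes around IFITM3 was added after the data were seen. Positions and promoters came from RefSeq (GRCh38.p14), exon lengths and overlaps from GENCODE v29. Some results for single genes of the pathway lists are left out of the text.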

Additional observations from a re-analysis of the deposited data

Results flagged for a closer look

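IFITM2 and IFIT3 were singled out because every same-numbered pair of libraries moved one way with butyrate in WT and the opposite way in KO. The share of all 15805 tested genes with this pattern was not counted, so it cannot be called particular to IFITM2 and IFIT3. IFITM2 differed by -0.39, -0.27 and -0.56 on the log2 CPM scale in WT and by 1.04, 0.44 and 0.17 in KO, for replicates 1, 2 and 3. Its interaction was 0.88 (SE 0.455) with an unadjusted p of 0.0754 and an adjusted p of 1 in edgeR's quasi-likelihood test. IFIT3 differed by 0.34, 0.29 and 0.34 in WT and by -0.41, -1.0 and -1.44 in KO. Its interaction was -1.38 (SE 0.834), with an unadjusted p of 0.122 and an adjusted p of 1 in the same edgeR test. The difference between genotypes thus did not pass the test for either gene. For IFIT3 the libraries held 11 to 46 counts each. IFITM2 shares part of its sequence with IFITM1 and IFITM3, and the part of shared reads in its pattern was not tested.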

How the results depend on the processing

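Of 458 alternative values of log2 fold changes of the 6 tested members, 413 kept direction and side of the threshold, 12 passed it newly, 7 lost it and 26 changed sign; IFITM3 stayed higher in KO cells in all of them where it was fitted alone. With the replicate block, which pairs libraries by number, members past the threshold were 1 rather than 0 for butyrate in KO and 2 rather than 1 for KO against WT treated, and pathway genes were 11 (not 3) and 13 (not 4) with butyrate in WT and KO and 36 (not 22) and 28 (not 15) for KO against WT untreated and treated. No other call of a named member changed with it. Members with butyrate in WT fell from 1 to 0 with at least 10 counts in every library, with only the groups compared and with the IFITM genes summed. Members with butyrate in KO were 1 with DESeq2, with no filter and without the libraries numbered 1, and for KO against WT treated they were 2 with these settings and with library size alone. Summing the IFITM genes, which removes IFITM3 as a gene of its own, gave 0 members for KO against WT untreated and treated. Pathway genes were 10 and 9 with DESeq2, 12 and 14 without the libraries numbered 1 for butyrate in WT and KO, 24 without those libraries for KO against WT treated, and 0 (butyrate in WT) and 9 (KO against WT treated) with only the groups compared. Without the libraries numbered 1 the signs of IRF9 untreated (0.02), the IFIT1 interaction (0.01) and the IFITM3 interaction (-0.09) turned. The cause of these shifts was not tested. Leaving out 1 library at a time, members ranged from 0 to 1 with butyrate in WT and in KO and from 1 to 2 for KO against WT in both states, and pathway genes from 0 to 5 and 0 to 7 with butyrate in WT and KO. Log2 fold changes that crossed 0 ranged as follows. ISG15 ran from -0.06 to 0.29 and -0.04 to 0.94 with butyrate in WT and KO, from -0.38 to 0.20 and -0.22 to 0.79 for KO against WT untreated and treated, and from -0.17 to 0.82 in the interaction. With butyrate IFIT3 in WT ran from -0.07 to 0.79 and IFITM3 in KO from -0.23 to 0.06. For KO against WT, untreated then treated, IFITM1 ran from -0.02 to 0.45 and -0.10 to 0.46, IFNAR1 from -0.23 to 0.03 and -0.26 to 0.02, and IFNAR2 from -0.51 to 0.12 and -0.64 to 0.06. IFITM2 untreated ran from -0.27 to 0.37 and IRF9 treated from -0.10 to 0.22. Interactions ran from -0.20 to 0.34 for IFITM1, -0.02 to 0.47 for IFITM3 and -5.35 to 0.38 for IFIT1, whose lowest value is set by a group with 0 counts in both remaining libraries.

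The depth leaves IFIT1, IFIT2 and IFIT3 at 0 to 46 counts per library, where changes below several-fold could not be resolved, and gives OAS1 and MX1 no comparable level.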
